A study of Homo sapiens with 11 samples.

Results

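The 51 genes described here encode mesenchymal markers, extracellular matrix proteins, integrins, matrix-degrading proteases with their inhibitors, and a few surface and motility proteins. They were chosen by gene symbol, with earlier results of these data known. Every probe whose symbol in the scanner output was one of the 51 was taken, which gave 82 of the 41000 probes on the array. Of these, 65 probes of 43 genes were well above background, a mark that the scanner software sets for each spot, on at least 6 of the 11 arrays, as were 27126 probes in all. The study asked whether a small RNA duplex designed against the E-cadherin promoter and miRNAs that share its seed change the same genes. PC-3 cells, a human cell line derived from prostate cancer, were grown in medium with fetal bovine serum, and total RNA was taken 24 h after transfection. Mock cells received the reagent without any duplex, whereas the other cells received dsEcad640 or a synthetic duplex of one of 5 related miRNAs, which are printed below. Each array was given 150 ng of RNA mixed from 4 transfections, so the spread between single transfections of this 1 cell line is not visible, and whether mock arrays hold separate mixes is not given in the sources used here. The p-values therefore measure only the spread between arrays. That spread may be technical or hold differences between duplexes, as 5 of the 6 duplexes were pooled as 1 group for the test.

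The 11 arrays lie on 3 slides, called sets. The first slide carried miR-372 (sample 4) and miR-302a (sample 3) with dsEcad640 (sample 2) and 1 mock array (sample 1). On set 2 mock sample 8 stood beside miR-373 (sample 7) and miR-520f (sample 6). On set 3 there were 2 mock arrays, samples 9 and 11, together with miR-520c (sample 12) and a further miR-372 array (sample 10). The title of sample 6 reads miR-530f where its other labels read miR-520f, and it is treated as miR-520f. Leaving out the mock arrays and miR-520f, 6 arrays remain, which are named common-seed arrays here.

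Epithelial cells that turn mesenchymal lose E-cadherin and keratins and gain vimentin, N-cadherin and matrix proteins such as fibronectin. The matrix they lay down is built of collagens, laminins and glycoproteins, integrins bind it at the cell surface, and metalloproteinases and the plasminogen system cut it. The transcriptional repressor ZEB1 is known for shutting off epithelial genes in this change, and the miRNA family transfected here is best known from embryonic stem cells.

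The mature strands of the 5 miRNAs are shown because their seeds define the groups, with the seed, bases 2 to 8, in capitals. They are RefSeq sequences on GRCh38.p14, written 5′ to 3′.
miR-302a: uAAGUGCUuccauguuuugguga
miR-372: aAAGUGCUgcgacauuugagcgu
miR-373: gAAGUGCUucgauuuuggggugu
miR-520c: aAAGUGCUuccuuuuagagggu
miR-520f: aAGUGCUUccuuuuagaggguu
The 4 others than miR-520f share the seed AAGUGCU. In miR-520f these letters lie at bases 1 to 7, and its seed reads AGUGCUU. The guide strand of dsEcad640 has the common seed according to the study.

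Levels below are log2 processed signals minus the 75th percentile of each array, which thus lies at 0, and they are comparable between arrays for a probe but not between probes. In PC-3 cells most of these genes were measurable: 65 of the 82 probes were well above background on all 4 mock arrays, and 59 on all 11 arrays. No probe was kept for 8 of the 51 genes: the integrin chains ITGB3, ITGB6 and ITGB8, the metalloproteinases MMP2, MMP3 and MMP10, the inhibitor TIMP3 and the collagen crosslinking enzyme LOX. COL5A2, COL6A3, ITGAV and TIMP2 each had 1 further probe that was not kept. All 6 epithelial marker genes on the array were well above background on the 4 mock arrays, the fibroblast markers FAP and PDGFRB, the endothelial marker CDH5 and the leukocyte marker PTPRC were on no mock array, and THY1 was the 1 fibroblast marker of 8 on all 4.

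The libraries differed in ways that bear on weak probes. On miR-372 sample 4, 88.2% of all probes carried that mark, where the remaining arrays had 54.3% to 72.7%, and 16.5% of the probes kept were at least 2-fold above mock sample 1 on it. In set 2, the share was 54.3% on miR-520f and 57.7% on miR-373, against 67.0% on mock sample 8, and 209 and 196 spots carried an outlier mark, against 67. Mock samples 9 and 11, which share a slide, differed by a median of 0.28 on the log2 scale over the 65 member probes and of 0.22 over all probes kept. The largest such difference among members was 2.34, for SPARC.

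When limma set the 6 common-seed arrays against the 4 mock arrays, with the set as a block and Benjamini-Hochberg adjustment over all 27126 probes, 9 of the 65 member probes passed an adjusted p of 0.05, or 13.8%, where 4.19% of all probes kept did. COL5A2, MMP1, PLAT and LAMA3 rose, with 5 probes, and COL4A2, NT5E, PLAUR and TNC fell, with 4 probes, where 2.16% of all probes rose and 2.03% fell. The median log2 fold change over the member probes was 0.06, against 0.03 over all probes. The remaining 56 probes did not pass. As the members were chosen with earlier results of these data known, the member shares in this paragraph describe the list and do not test it. Where probes had to be well above background on all 11 arrays, 2098 of 21409 probes passed. Of the 59 member probes among the 21409, 6 rose and 7 fell, so the shares depend on how dim probes are filtered. At an unadjusted p under 0.05, 14 of the 65 member probes lay higher, where 11.7% of all probes did, and 19 lower, where 9.36% did. Leaving out single arrays gave 1 to 5 member probes that rose and 0 to 5 that fell, and without mock sample 1 the 1 that was left was a COL5A2 probe.

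**Figure D1:**
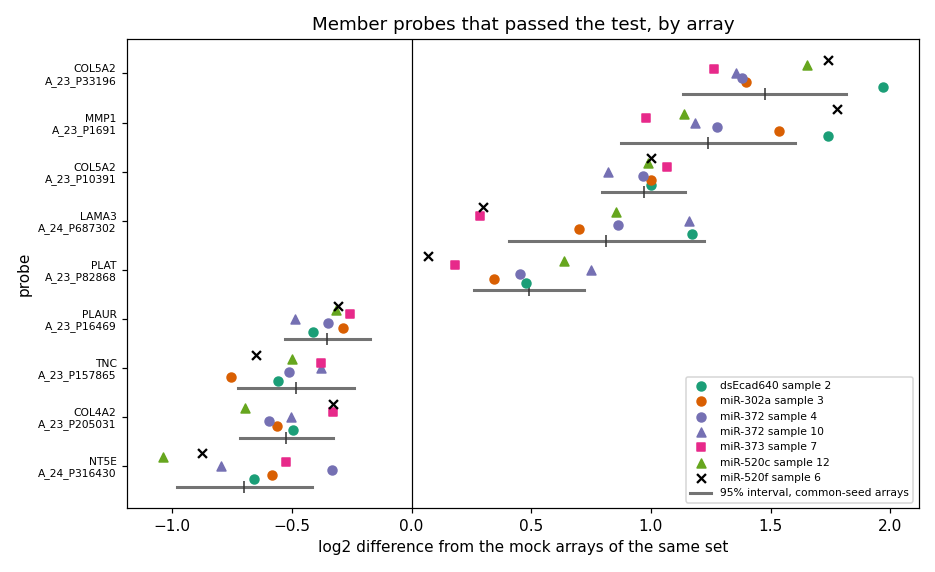
Log2 difference of each duplex array from the mock arrays of its set (x axis) for the 9 member probes that passed the test (y axis), 1 symbol per array, with the limma estimate (tick) and its 95% interval (grey bar) for the 6 common-seed arrays. The 5 probes that rose lie above 0 on all 7 arrays and the 4 that fell lie below 0 on all 7, miR-520f included, and the COL5A2 probe A_23_P10391 spans 0.82 to 1.07.

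COL5A2, the alpha2 chain of the fibrillar collagen V that helps to set fibril diameter, had the smallest adjusted p among the members. Its probe A_23_P10391 (hg18 chr2:189607096-189607155) had log2 levels of -0.72, -0.80, -0.39 and -0.28 on mock samples 1, 8, 9 and 11. On samples 2, 3, 4, 7, 10 and 12, the common-seed arrays, the levels were 0.28, 0.28, 0.25, 0.27, 0.49 and 0.66. All 6 common-seed arrays lay above all 4 mock arrays, and the log2 fold change was 0.97 (SE 0.08, limma adjusted p = 0.0024). The second probe, A_23_P33196 (chr2:189605674-189605733), had levels of 0.90, 0.94, 1.41 and 1.61 on the mock arrays and of 2.87, 2.30, 2.28, 2.20, 2.86 and 3.16 on the common-seed arrays in the same order. Here too the groups did not overlap, and the log2 fold change was 1.48 (SE 0.15, limma adjusted p = 0.0054, and 0.062 without mock sample 1). One further probe, A_32_P218734, was on no mock array and on 5 of 6 common-seed arrays well above background. The mean of its signal over all 6 common-seed arrays was 3.18-fold higher than a reference value for the mock arrays. That reference value takes for each mock array the higher of the probe's own signal and the lowest signal well above background of any probe. The set was not taken into account, and the probe was not tested because it was on fewer than 6 arrays. As it was picked for being on no mock array, it adds no support to the other 2 probes.

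Of the other collagen chains, 1 passed. COL4A2, a chain of basement membrane collagen IV, fell from 3.02, 3.09, 2.95 and 3.07 on mock samples 1, 8, 9 and 11 to 2.52, 2.46, 2.43, 2.76, 2.51 and 2.31 on the common-seed arrays (probe A_23_P205031, chr13:109963262-109963321). The groups did not overlap, and the log2 fold change was -0.52 (SE 0.08, limma adjusted p = 0.019, and 0.022 to 0.15 with single arrays left out). Its partner chain COL4A1 did not pass, with 0.32 for probe A_23_P65240 (adjusted p = 0.24) and a smaller value for the other. The 2 probes of COL5A1, the alpha1 chain that pairs with COL5A2 in collagen V, had log2 fold changes of -0.31 and -0.23 and did not pass. COL6A3, a chain of microfibrillar collagen VI, was lower on all 6 common-seed arrays, with differences from -0.93 to -0.30, and missed the threshold at -0.62 (limma adjusted p = 0.057). COL6A1 and COL6A2, the other collagen VI chains, had log2 fold changes between -0.34 and -0.17 with adjusted p-values from 0.073 to 0.36. COL1A1, the alpha1 chain of collagen I, had differences of 1.32, 0.24, 1.39, 0.39, 0.24 and 1.31 on the common-seed arrays, positive on all 6 but with a spread that left an adjusted p of 0.21. LOXL2, a lysyl oxidase that crosslinks collagen, was higher on all 6 arrays by 0.04 to 0.37 and did not pass (log2 fold change 0.18, limma adjusted p = 0.27). LOX, the enzyme of the same family, was well above background on 2 mock and 3 common-seed arrays and was not tested.

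**Figure D2:**
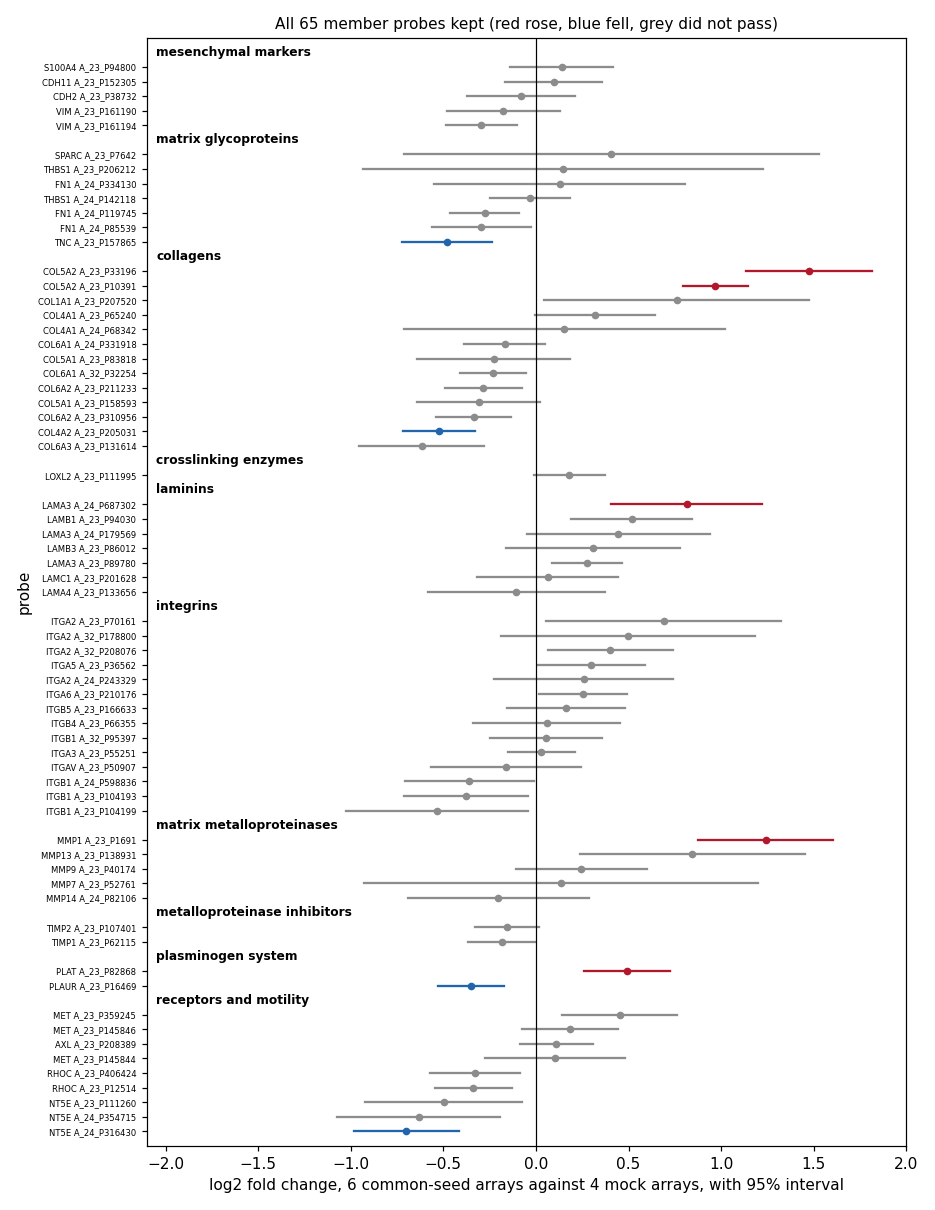
Limma log2 fold change (x axis) with its 95% interval (bars) for the 65 member probes kept, grouped by role, 6 common-seed arrays against 4 mock arrays. The 5 red probes rose and the 4 blue probes fell at an adjusted p under 0.05, and the intervals of many grey probes include 0.

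Among the matrix metalloproteinases, MMP1, the interstitial collagenase that cuts fibrillar collagens, rose. Probe A_23_P1691 (chr11:102165907-102165966) had log2 levels of -1.31, -1.23, -0.91 and -0.33 on mock samples 1, 8, 9 and 11. On the common-seed arrays the levels were 0.43, 0.22, -0.04, -0.25, 0.57 and 0.52 in the same order as above, all above the mock arrays. The log2 fold change was 1.24 (SE 0.16, limma adjusted p = 0.0093, and 0.092 without mock sample 1). MMP13, collagenase 3, lies in the same gene cluster on chromosome 11 and was higher on all 6 common-seed arrays, by 1.21, 1.26, 1.34, 0.63, 1.10 and 0.17. It was at least 2-fold above mock on 4 of them, and its log2 fold change of 0.85 did not pass (limma adjusted p = 0.11). Its level on miR-520c, -4.00, lay within the mock range of -4.69 to -3.65. MMP3, the stromelysin of the same cluster, was well above background on 1 mock and 3 common-seed arrays and was not tested. Its differences were 1.94, 1.22, 2.09, -0.17, -0.38 and 1.39. MMP10, its neighbour, was on 1 mock and 1 common-seed array, and MMP7, the matrilysin, had differences from -1.21 to 1.87 with no common direction. The gelatinase MMP9 and the membrane-bound MMP14 had log2 fold changes of 0.24 and -0.20 and did not pass, and for MMP14 the mock arrays themselves ranged from -1.71 to -1.02.

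**Figure D3:**
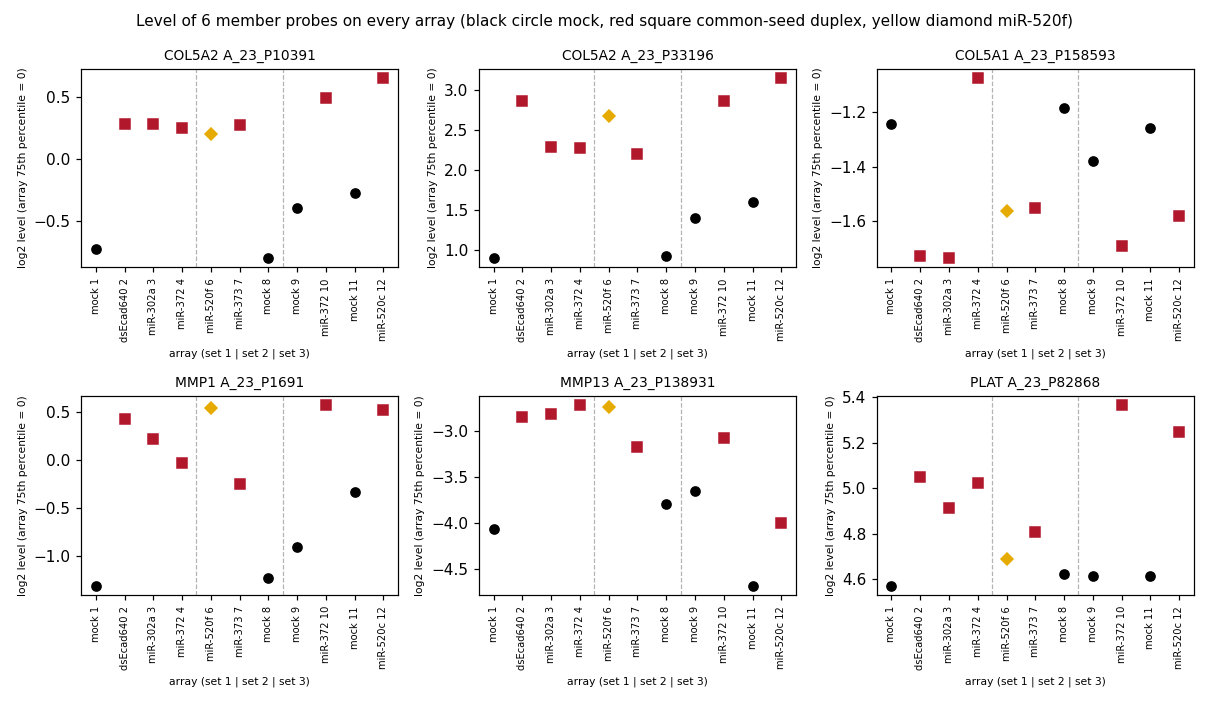
Log2 level relative to the array's 75th percentile (y axes) on each of the 11 arrays (x axis, sets divided by dashed lines) for 6 member probes, with mock arrays as black circles, common-seed arrays as red squares and miR-520f as a yellow diamond. Within each set both COL5A2 probes, MMP1 and PLAT are higher on every duplex array than on the mock arrays, while COL5A1 is lower on all but miR-372 sample 4.

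The metalloproteinase inhibitors were lower by little. TIMP1 was lower on all 6 common-seed arrays with differences from -0.29 to -0.03, and TIMP2 with differences from -0.23 to -0.06, and neither passed (log2 fold changes of -0.19 and -0.16). In the plasminogen system, PLAT, the tissue plasminogen activator, rose. Its levels were 4.57, 4.62, 4.61 and 4.62 on the mock arrays and 5.05, 4.91, 5.02, 4.81, 5.37 and 5.25 on the common-seed arrays, without overlap (log2 fold change 0.49, SE 0.10, limma adjusted p = 0.040, and 0.039 to 0.18 with single arrays left out). PLAUR, the receptor of urokinase (probe A_23_P16469, chr19:48861338-48861397), fell, from 1.29, 1.36, 1.49 and 1.59 on mock to 0.88, 1.00, 0.94, 1.10, 1.05 and 1.22. These groups did not overlap either, and the log2 fold change was -0.35 (SE 0.08, limma adjusted p = 0.047, and 0.051 to 0.22 with single arrays left out).

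Laminins, the basement membrane trimers, had 1 probe of 7 that rose. LAMA3, the alpha3 chain of epithelial laminin, had levels of -3.17, -3.12, -3.43 and -3.96 on mock and of -1.99, -2.47, -2.30, -2.83, -2.53 and -2.84 on the common-seed arrays for probe A_24_P687302 (chr18:19765096-19765155). The groups did not overlap, and the log2 fold change was 0.81 (SE 0.18, limma adjusted p = 0.046, and 0.040 to 0.23 with single arrays left out). The differences were unequal between duplexes, with 0.29 on miR-373 and 1.17 on dsEcad640. The other LAMA3 probes had log2 fold changes of 0.28 and 0.44 and did not pass. LAMB1, a beta chain of other laminins, was higher on all 6 arrays by 0.29 to 0.71 (log2 fold change 0.52, limma adjusted p = 0.082). LAMB3 and LAMC1 had log2 fold changes of 0.31 and 0.06, and LAMA4, an alpha chain of vessel and muscle laminins, had -0.11 with differences from -0.47 to 0.23.

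Of the matrix glycoproteins, TNC, tenascin C, which loosens adhesion to fibronectin, fell. Its levels were 0.23, 0.22, 0.52 and 0.16 on mock and -0.32, -0.52, -0.28, -0.16, -0.04 and -0.16 on the common-seed arrays (probe A_23_P157865, chr9:116823131-116823190). No common-seed array reached a mock array, and the log2 fold change was -0.48 (SE 0.10, limma adjusted p = 0.047, and 0.042 to 0.24 with single arrays left out). Fibronectin, FN1, had log2 fold changes of -0.28 (adjusted p = 0.099), -0.29 and 0.13 for its 3 probes. Thrombospondin 1, THBS1, did not pass with either probe. SPARC, a collagen-binding glycoprotein, had levels of -0.53, -0.52, -0.39 and -2.73 on mock samples 1, 8, 9 and 11. With such a spread its log2 fold change of 0.41 had a 95% interval of -0.71 to 1.53.

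The mesenchymal markers gave no call. Vimentin, VIM, the mesenchymal intermediate filament, had mock levels of 6.55, 6.51, 6.38 and 6.37 for probe A_23_P161194 and lay lower on all 6 common-seed arrays, by 0.14 to 0.54 (log2 fold change -0.29, limma adjusted p = 0.087). Its other probe did so on 5 of the 6. N-cadherin, CDH2, had differences from -0.41 to 0.11, CDH11, a cadherin of mesenchymal cells, from -0.17 to 0.39, and the calcium-binding S100A4 from -0.13 to 0.37. The 95% intervals of their log2 fold changes included 0.

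No integrin probe of the 14 kept passed. ITGA2, the collagen-binding alpha2 chain, had log2 fold changes of 0.26 to 0.69 for its 4 probes, and the probe with the highest value, A_23_P70161, had differences of 0.32, 0.15, 0.97, -0.03, 1.05 and 1.36. ITGB1, the common beta1 chain, had log2 fold changes of -0.54, -0.38 and -0.36 for 3 of its 4 probes, and 0.06 for the fourth. One of the 3, A_24_P598836, is placed by the files on another chromosome than the rest, so its transcript is uncertain. The alpha chains ITGA3, ITGA5, ITGA6 and ITGAV and the beta chains ITGB4 and ITGB5 had log2 fold changes between -0.16 and 0.30. ITGB3, the beta3 chain of the vitronectin receptor, had 3 probes that the filter left out. Of these, A_23_P38519 was well above background on 2 mock arrays and A_24_P929003 on none. Probe A_24_P318656 had levels of -4.78, -4.74, -5.00 and -4.93 on mock, where it was well above background on all 4 arrays, and of -7.82, -6.81, -5.21, -5.97, -5.78 and -6.09 on the common-seed arrays. It was well above background on 1 common-seed array, miR-372 sample 10. With a filter of at least 3 mock arrays well above background instead, its log2 fold change was -1.31 (limma adjusted p = 0.15). It passed that filter only through the mock arrays, where it was high, so this value adds no support for a fall. ITGB8 probe A_24_P759477, which that filter also added, had -0.28 (limma adjusted p = 0.71).

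Among receptors and motility proteins, NT5E, the surface 5′-nucleotidase CD73 that makes adenosine, fell. Probe A_24_P316430 had levels of -1.94, -2.01, -1.10 and -0.90 on mock and of -2.60, -2.52, -2.27, -2.53, -1.80 and -2.04 on the common-seed arrays. The groups overlapped when the slides were pooled, mock and duplex arrays of set 3 being higher than those of sets 1 and 2, but within each set the duplex arrays lay below mock, by 0.33 to 1.04. The log2 fold change with the set as a block was -0.70 (SE 0.12, limma adjusted p = 0.026, and 0.013 to 0.11 with single arrays left out). The other NT5E probes were lower on all 6 arrays as well, at -0.63 and -0.50, and did not pass. RHOC, a small GTPase of cell motility, was lower on all 6 arrays for both probes, at -0.34 and -0.33 (limma adjusted p of 0.077 and 0.12). The receptor kinase MET, which binds hepatocyte growth factor, had 0.45 for 1 of 3 probes (adjusted p = 0.10), and AXL, another receptor kinase, had 0.11. The list of genes with a common seed site that the study drew up on these arrays holds COL4A2, LAMA3 and RHOC, so that list is not independent of the values here.

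Counts of direction go past those of the test. All 6 common-seed arrays lay above the mock arrays of their set for 13 of the 65 probes (20.0%), where 16.6% of all probes did, and below for 18 (27.7%), where 11.5% did. Of the 18, 5 were among the 13 collagen probes, 5 among the 9 of the receptor and motility group and 3 among the 7 of the glycoproteins. The 5 of the receptor and motility group were the 3 probes of NT5E and the 2 of RHOC. Laminins, metalloproteinases and crosslinking enzymes held 0, with 7, 5 and 1 probes. As the 6 arrays share 4 mock arrays and several probes of 1 gene are counted apart, these counts are a description.

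Single arrays were read against the mock arrays of their set without a test. On dsEcad640, 6 of the 65 member probes were at least 2-fold higher than mock, where 1.28% of all probes were, and on miR-302a 4, where 0.914% were. On miR-372 sample 4 the count was 7, where 16.5% of all probes were at least 2-fold higher, and on miR-372 sample 10 it was 7, where 0.965% were. On miR-373 it was 3, where 1.48% were, on miR-520c 4, where 3.94% were, and on miR-520f 5, where 2.13% were. At least 2-fold lower were 3 member probes on miR-520c, where 3.55% of all probes were, 1 on dsEcad640, where 2.61% were, 1 on miR-372 sample 4, where 0.546% were, and 1 on miR-520f, where 6.01% were. None was on miR-302a, where 1.37% were, on miR-373, where 3.17% were, or on miR-372 sample 10, where 1.17% were. COL5A2 was past 2-fold on all 7 arrays by at least 1 probe, and MMP1 on all but miR-373, where its difference was 0.98.

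**Figure D4:**
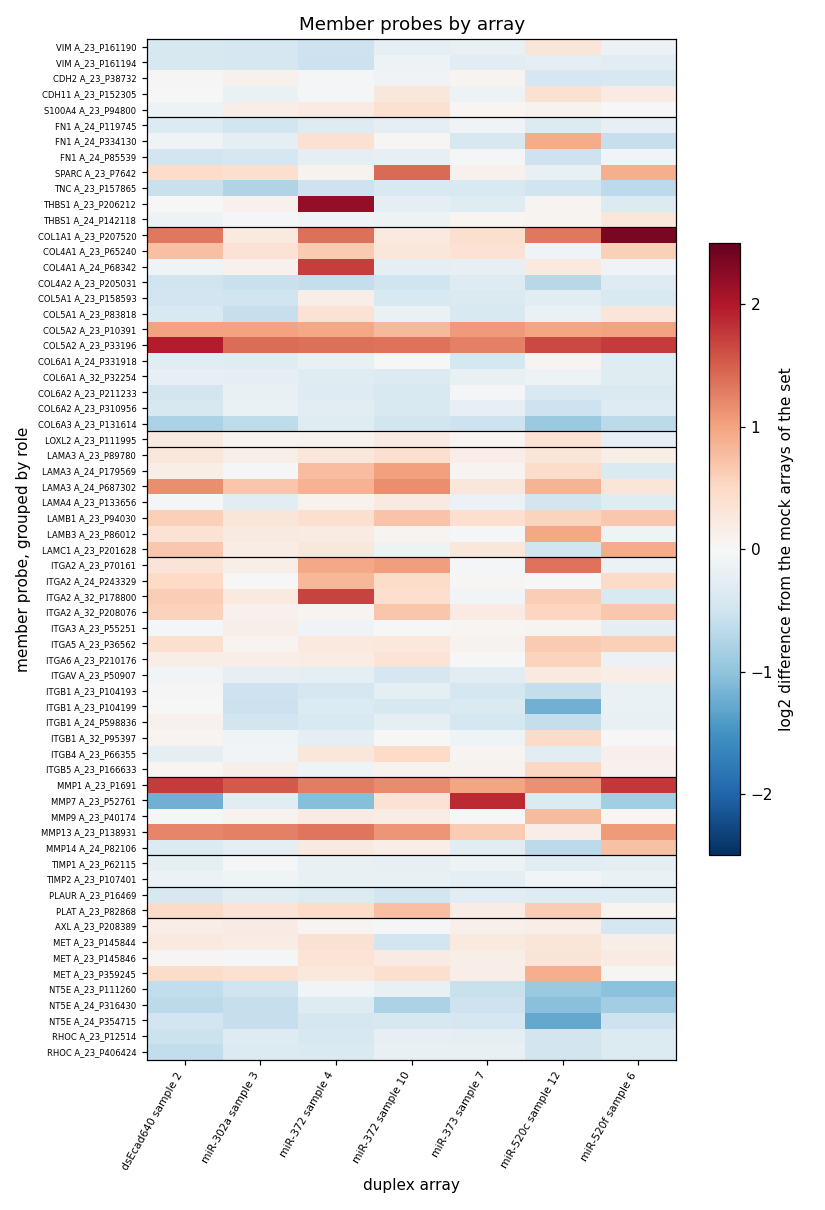
Log2 difference of each duplex array (columns) from the mock arrays of its set for the 65 member probes kept (rows, in role groups divided by black lines), in red where higher and blue where lower. COL5A2, MMP1 and MMP13 are red in all 7 columns, NT5E and RHOC are blue in all 7, and THBS1 A_23_P206212 and COL4A1 A_24_P68342 are past 2-fold on miR-372 sample 4 alone.

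The 2 miR-372 arrays, on different slides, could be set side by side. COL5A2 probe A_23_P33196 was 1.38 above mock on sample 4 and 1.36 on sample 10, MMP1 was 1.28 and 1.19, MMP13 was 1.34 and 1.10, and COL4A2 was -0.59 and -0.50. THBS1 probe A_23_P206212 was 2.19 on sample 4 and -0.25 on sample 10, and COL4A1 probe A_24_P68342 was 1.72 and -0.23, both on dim probes. SPARC was 0.10 on sample 4 and 1.41 on sample 10, where mock sample 11 enters the reference. A limma test of the difference between the effect in set 3 and that in set 1 passed for no probe of 27119, at 631 probes with an unadjusted p under 0.05, none of them a member.

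miR-520f, whose seed is shifted by 1 base, had 1 array and was read against mock sample 8, which is also the reference of miR-373. All 9 probes called for the common-seed arrays differed from mock in the same direction on miR-520f. Mock sample 8 also entered the fit that called them, so these directions are not independent of the calls. The share among all probes called is not given here. COL5A2 was higher by 1.00 and 1.74, MMP1 by 1.78 and MMP13 by 1.06, and on miR-373 these values were 1.07, 1.26, 0.98 and 0.63. COL1A1 was higher by 2.35 on miR-520f and by 0.39 on miR-373. PLAT was higher by 0.07 on miR-520f and by 0.18 on miR-373, and NT5E probe A_23_P111260 was lower by 1.02 and by 0.56. With 1 array each, whether these differ was not tested.

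Further genes of the same pathways, 69 that are not members, were read from a list of other collagens, laminins, integrin chains, metalloproteinases, ADAM proteases and plasminogen regulators. Of their 83 probes kept, 2 rose and 2 fell, where 2.16% and 2.03% of all probes did, and whether this differs from the members was not tested. Both probes that rose belong to SERPINB2, an inhibitor of plasminogen activators. The one that was well above background on all mock arrays, A_23_P153185, had a log2 fold change of 1.75 (SE 0.24, limma adjusted p = 0.011). The other, A_24_P245379, was well above background on 6 arrays, none of them mock. It passed the filter only through the duplex arrays, where it was high, so its call adds no support. The surface protease ADAM9 fell by 1.04 (limma adjusted p = 0.044) and the laminin beta2 chain LAMB2 by 0.42 (adjusted p = 0.027). Of the 10 probes of the epithelial markers 5 rose and 0 fell, those that rose being of the keratins KRT8 and KRT18, and the summed level of the list, on the log2 scale, was 7.71 to 7.93 on mock and 8.24 to 8.53 on the common-seed arrays. CDH1, which encodes E-cadherin, was higher on all 6 common-seed arrays by 0.12 to 1.03. It did not pass (log2 fold change 0.68, limma adjusted p = 0.10). The study states that its arrays at 24 h detected no E-cadherin increase. The part of the epithelial markers in the results above was not tested.

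Promoter letters were read for 36 of the 51 genes, those that the RefSeq promoter table (GRCh38.p14, 250 bases before to 50 after each start) holds. COL5A2, MMP1 and PLAT are among the others. Of the 5 called genes in the table, COL4A2, NT5E and TNC hold no match to either motif searched. LAMA3, which rose, and PLAUR, which fell, are shown because both hold a match to the AP-1 motif TGAGTCA or TGACTCA, with matches in capitals, 5′ to 3′ on the gene's strand.
LAMA3 (chr18:23872770-23873069, plus strand): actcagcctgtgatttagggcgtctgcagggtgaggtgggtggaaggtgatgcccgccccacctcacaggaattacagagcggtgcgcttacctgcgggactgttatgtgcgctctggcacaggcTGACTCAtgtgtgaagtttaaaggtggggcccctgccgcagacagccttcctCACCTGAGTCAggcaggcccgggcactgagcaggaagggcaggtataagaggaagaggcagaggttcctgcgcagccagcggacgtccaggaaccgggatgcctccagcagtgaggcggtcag
PLAUR (chr19:43670120-43670419, minus strand): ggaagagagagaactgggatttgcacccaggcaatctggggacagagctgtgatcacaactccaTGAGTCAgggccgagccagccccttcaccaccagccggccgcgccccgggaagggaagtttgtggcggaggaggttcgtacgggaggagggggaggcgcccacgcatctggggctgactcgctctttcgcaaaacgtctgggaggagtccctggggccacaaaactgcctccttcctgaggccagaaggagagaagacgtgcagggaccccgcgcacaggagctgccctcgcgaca
In LAMA3 the second capital run holds an E-box CACCTG, of the kind that ZEB1 binds, which overlaps an AP-1 match. The E-box CAGGTG or CACCTG was in 20.0% of the 50 member promoters and in 20.59% of all 35116 promoters in the table, and the AP-1 motif in 10.0% and in 4.949%. A match is a description of letters and no evidence of binding.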

How the data were processed

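The authors deposited the output of Agilent Feature Extraction (version 10.5.1.1 per the file headers) for each 1-colour array. The processed signal in these deposited files is an intensity from which the software subtracted background and within-array trends, and it is not scaled between arrays. A second deposited table holds log2 values normalized by a method not given in the sources used here, and it served as an alternative. From the processed signals, spots marked as outliers were dropped, log2 was taken, the 75th percentile of each array was subtracted and spots of a probe were averaged. Probes well above background on at least 6 of 11 arrays were kept. limma 3.58.1 in R 4.3.3 fitted the 6 common-seed against the 4 mock arrays with the set as a block, which left 6 residual degrees of freedom. Values without a test are log2 differences from the mean of the mock arrays of the set. In simulated data, 18% of probes changed by 0.5 on the log2 scale and 52% of those changed by 1 were called. The number of arrays limits the precision. Gene symbols are those of the array design. Probe coordinates are those of hg18 in the files, and no exon annotation of that build was used. Figures were drawn with Python 3.11.15 and matplotlib 3.10.9. Named are members that passed, the highest and lowest probe by log2 fold change in each role group, and members at least 2-fold changed on at least 4 of the 6 arrays. Other members named for context were chosen after their values were seen. The members and lists were chosen with earlier results of these data known. Alternatives tried were normexp correction (offset 50), quantile normalization, other filters on dim probes, no block, gene means over probes, the deposited table, miR-520f added, each set alone, each mock array of set 3 alone, and each of the 10 arrays left out in turn.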

Additional observations from a re-analysis of the deposited data

Results flagged for a closer look

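In 5 of the 44 groups of array values checked, 1 mock array stood farther from the other 3 than Dixon's 95% critical value, which by its definition chance passes in about 1 in 20 groups. On mock sample 11, S100A4 had a log2 level of 0.75, against 1.08 to 1.13 on the other mock arrays. SPARC had -2.73 on mock sample 11, against -0.53 to -0.39. COL6A3 had 1.69 on it, against 2.00 to 2.06, and MMP14 had -1.71, against -1.07 to -1.02. On mock sample 9, TIMP2 had 3.08, against 3.24 to 3.26.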

How the results depend on the processing

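COL5A2 probe A_23_P10391 passed an adjusted p of 0.05 (limma) in all 19 alternatives that give a test. COL5A2 probe A_23_P33196 and MMP1 lost it in 1 of them, without mock sample 1 (adjusted p of 0.062 and 0.092). The other 6 calls were lost in 8 to 15 of the 19, among them with no filter on dim probes for all 6, and with most arrays left out, while all 9 kept their direction. COL6A3 passed in 5 alternatives, and VIM and MET with the authors' table. With quantile normalization 3 of the 65 member probes rose, where 598 of 27126 probes in all did. With no filter 123 probes in all rose and 99 fell, and 3 and 0 members did. With the filter on all 11 arrays the counts were 1137 and 961 of 21409 probes tested, and of 59 member probes 6 rose and 7 fell. Leaving the set out of the fit gave 173 and 209, with 3 and 1 members. With the authors' table they were 961 and 1051 of 21375 probes tested, and 9 of 59 member probes fell. With miR-520f added 7 of 65 member probes fell, where 665 of 27126 probes in all did. With the mean of a gene's probes 3 of 43 member genes rose, where 453 of 19856 genes in all did. With each array left out in turn, 10 to 815 probes rose and 14 to 1118 fell over all probes, and 1 to 5 and 0 to 5 over members, the lowest without mock sample 1 (10 and 14, with 1 and 0 members) and the highest without miR-372 sample 4. In every other case but those without miR-372 sample 4, 3 members rose and 0 or 2 fell. Without miR-373 sample 7 or mock sample 8, set 2 adds nothing, so these are equal. Of member values at least 2-fold from mock, 36 were higher and 6 lower, and 17 and 2 with normexp. With single arrays left out the log2 fold change of LAMA4 ranged from -0.26 to 0.051, turning positive without mock sample 9 (0.051) or miR-520c (0.017), and that of SPARC from -0.037, without mock sample 11, to 0.78. The cause of these changes was not tested. The filters also change the number of probes tested, and leaving out an array the number of arrays. Dim probes limit the values for MMP3, MMP10, ITGB3 and the third COL5A2 probe. LAMA3 probe A_24_P687302 and MMP13 also had low levels. With normexp the log2 fold change of this LAMA3 probe went from 0.81 to 0.45 (limma adjusted p = 0.086). That of MMP13 went from 0.85 to 0.36. The LAMA3 call was lost in 15 of the 19 alternatives.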
